A study of Mus musculus with 6 samples.

Results

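Ribosome biogenesis genes code for the proteins that make ribosomes without being part of the finished particle. The loci described here were the 75 in the deposited table whose KEGG annotation holds the entry for ribosome biogenesis in eukaryotes, and 71 of them had a mean of at least 1 FPKM over the 6 libraries, out of 10562 such loci among 24469 in all. FPKM is the number of fragments of a locus per kilobase of its exons, scaled to the mapped total of its library. The mean level therefore chose the members, and the KEGG entry was picked out after its changes in these libraries were known, so the counts below describe the entry and are no independent evidence for its direction. Members just inside the limit were Nxt1 at a mean of 1.04 FPKM, Rexo5 at 1.05 and Imp3 at 2.48, and those just outside were Rpp40 at 0.758, Rpp25 at 0.0257 and Rasl2-9 at 0.0178, followed by Nxf3 at 0.00647.

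The libraries came from MPC, a conditionally immortalized mouse podocyte line that was expanded with 50 U/mL interferon gamma at 33 °C and left to differentiate without it for 10 days at 37 °C. All 6 libraries were exposed to 25 mM glucose (HG) for 12 h after 12 h of starvation. They formed 3 groups of 2, with HG alone, HG after 1 h with 100 ng/mL rFGF1WT, and HG after 1 h with 100 ng/mL rFGF1ΔHBS, a partial agonist whose mutations weaken the receptor dimerization that heparan sulfate assists. Both comparisons with HG share the same HG libraries, normal glucose is not covered here, and no label says that the 2 libraries of a group were separate cultures, so p-values measure only the spread between these samples.

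A ribosome begins in the nucleolus, where RNA polymerase I transcribes a long precursor rRNA. Small nucleolar ribonucleoproteins (snoRNPs) modify this precursor, box C/D particles by methylating riboses and box H/ACA particles by converting uridine to pseudouridine, while the small subunit (SSU) processome folds and cuts the part that becomes the 40S subunit. Other factors assemble the pre-60S particle, RNase MRP and several exonucleases cut and trim the spacers, and export factors carry both subunits to the cytoplasm.

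Most members were higher than in HG with either protein, 54 of 71 with rFGF1WT (43.7% of all loci) and 58 of 71 with rFGF1ΔHBS (44.3% of all loci). With rFGF1WT, 16 of 71 members rose at a limma adjusted p under 0.05, where 3.26% of all loci did, and none fell, where 2.94% did (either way, 16 members and 6.19% of all loci). With rFGF1ΔHBS, 17 rose (3.37% of all loci) and 1, Rrp7a, fell (2.89% of all loci), 18 calls where 6.26% of all loci were called. The changes were small. Over the 14 members that rose with both, the mean FPKM was 31.2% to 86.8% above HG with rFGF1WT (median 50.1%) and 30.9% to 86.8% above it with rFGF1ΔHBS (median 59.0%). With a limit of 2-fold added, 1 member (Rpp25l) passed with rFGF1WT and none with rFGF1ΔHBS, against 1.01% and 0.899% of all loci.

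The counts below take in all 71 members, called or not. Both rFGF1WT libraries were above both HG libraries for 44 members (24.1% of all loci) and below both for 5 (34.1%), and for rFGF1ΔHBS these were 45 (24.4%) and 7 (32.9%). All 4 treated libraries lay above both HG libraries for 39 of 71 members, against 17.1% of all loci, and below both for 2 members, Rbm28 and Nxt2, against 25.5%. At an unadjusted limma p under 0.05, 31 members were higher and 2 lower with rFGF1WT (10.8% and 14.0% of all loci), and 35 were higher and 3 lower with rFGF1ΔHBS (10.9% and 14.0%). The median log2 fold change of the 71 members, on the log2(FPKM + 1) scale used throughout, was 0.18 with rFGF1WT and 0.26 with rFGF1ΔHBS, and that of all loci was −0.04 in both. The count of calls rested on all 6 libraries at once. For rFGF1WT it was 0 without HG replicate 1, without rFGF1WT replicate 1 and without rFGF1WT replicate 2, 1 without HG replicate 2, and 2 without either rFGF1ΔHBS library, while the calls over all loci fell from 654 to between 134 and 195. For rFGF1ΔHBS almost none or none of the calls were kept when any single library was left out. Calls over all loci were also far fewer than the 661 of the full fit. Without HG replicate 2, what was called was a fall that the full fit had not called (Csnk2a1, log2 fold change −0.96). The medians stayed between 0.18 and 0.22 and between 0.22 and 0.28 in these fits.

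**Figure D1:**
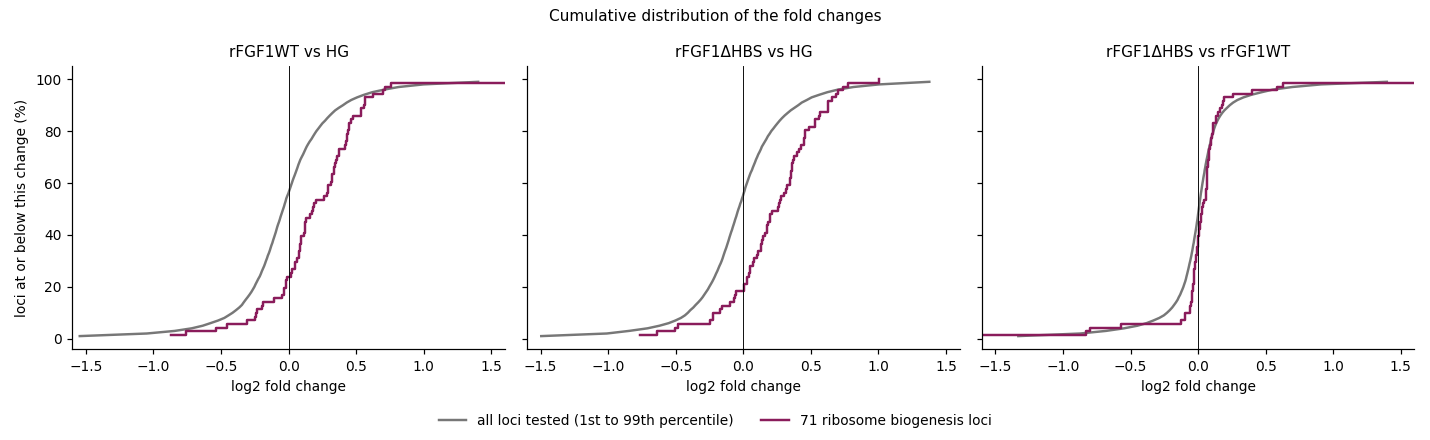
Cumulative distribution of log2 fold changes (horizontal axis, cropped on both sides) for the 71 ribosome biogenesis loci and for all 10562 loci tested, with the percent of loci at or below each change on the vertical axis. In both comparisons with HG the curve of the members runs to the right of that of all loci through the middle of the distribution (medians 0.18 and 0.26 against −0.04), and between the proteins the curves lie close together (medians 0.03 and 0.01).

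The box C/D snoRNP had 3 of its 4 members up with each protein. Nop56, a scaffold protein of the particle on chromosome 2 (MSTRG.7949), had 23.4 and 24.3 FPKM in HG, 40.5 and 39.1 with rFGF1WT, and 40.3 and 37.6 with rFGF1ΔHBS. All treated libraries were well clear of HG, and the change was 0.71 ± 0.06 (SE; adjusted p = 0.0143) and 0.68 ± 0.06 (adjusted p = 0.0162). Its partner Nop58 (MSTRG.245, chromosome 1) had 9.71 and 9.68 FPKM in HG, 14.5 and 14.6 with rFGF1WT, and 16.2 and 14.9 with rFGF1ΔHBS. Fibrillarin (Fbl), the methyltransferase of the particle, had 9.04 and 9.81 FPKM in HG, 12.7 and 13.1 with rFGF1WT, and 13.3 and 13.2 with rFGF1ΔHBS. Both rose with both proteins, Nop58 by 0.54 and 0.63 and Fbl by 0.42 and 0.45. Snu13, which binds the kink of the guide RNA, had 21.0 and 18.5 FPKM in HG against 23.4 to 25.7 in the 4 treated libraries, without overlap, and missed the threshold (adjusted p = 0.135 and 0.0908).

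Several of these loci also carry the guides themselves. In GENCODE M21, 16 snoRNA genes lie inside 5 members on the same strand, in Nop56, Nop58, Gnl3, Wdr43 and Dkc1, and 4 of the 5 hosts rose with each protein, against 12 and 13 of the 66 other members. Over all tested loci, 234 held a snoRNA gene, of which 5.98% rose with rFGF1WT and 6.84% with rFGF1ΔHBS, against 3.20% and 3.29% of the 10328 that held none. These libraries measured the spliced host messages and not the snoRNAs. The 4 guides below are those of the 4 hosts that rose, chosen because box C (TGATGA) and box D (CTGA), the letters bound by the box C/D proteins, stand in them within 20 bases of the ends, as they do in 7 of the 16. They are written 5′ to 3′ from GENCODE M21 with both boxes in capitals, for Snord110 in Nop56 (GRCm38 chr2:130275506-130275573, plus strand), Snord11 in Nop58 (chr1:59704790-59704873, plus strand), Snord69 in Gnl3 (chr14:31014287-31014366, minus strand) and Snord92 in Wdr43 (chr17:71631281-71631365, plus strand).
Snord110: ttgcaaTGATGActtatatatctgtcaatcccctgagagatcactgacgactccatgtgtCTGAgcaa
Snord11: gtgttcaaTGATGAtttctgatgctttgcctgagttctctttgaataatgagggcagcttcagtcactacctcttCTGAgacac
Snord69: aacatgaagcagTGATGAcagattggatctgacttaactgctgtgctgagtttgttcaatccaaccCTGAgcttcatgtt
Snord92: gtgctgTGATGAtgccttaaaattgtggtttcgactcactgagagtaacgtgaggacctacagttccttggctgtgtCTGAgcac

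The box H/ACA snoRNP moved less evenly. Nop10, its smallest core protein, had 9.28 and 8.88 FPKM in HG, 12.6 and 12.6 with rFGF1WT, and 12.4 and 13.2 with rFGF1ΔHBS, and rose with both (0.43 and 0.45; adjusted p = 0.0330 and 0.0302). Gar1, needed for release of the modified RNA, had 11.1 and 11.1 FPKM in HG, 13.7 and 14.3 with rFGF1WT, and 17.5 and 16.3 with rFGF1ΔHBS. Its 3 groups were all separate, in that order, and its change passed with rFGF1ΔHBS (0.57, adjusted p = 0.0213) and not with rFGF1WT (0.31, adjusted p = 0.0657). The difference of 0.26 between the proteins (95% interval 0.09 to 0.42) did not pass either (adjusted p = 0.613). Dyskerin (Dkc1), the pseudouridine synthase, had 11.5 and 10.2 FPKM in HG, 13.6 and 16.7 with rFGF1WT, and 17.0 and 15.7 with rFGF1ΔHBS, and its changes of 0.45 and 0.56 did not pass (adjusted p = 0.122 and 0.0824). Nhp2 stood apart from its partners. It had 19.8 and 18.6 FPKM in HG and 11.8 and 10.1 with rFGF1WT, but 23.5 and 12.0 with rFGF1ΔHBS, so that those 2 replicates lay on either side of HG, and neither change passed (adjusted p = 0.246 and 0.782).

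Within the SSU processome, 8 of 28 members rose with each protein, 3 and 4 of them in the UtpA complex. UtpA joins the nascent precursor first. Of its 5 members, Heatr1, Utp4 and Wdr43 rose with both proteins and Wdr75 passed only with rFGF1ΔHBS. Heatr1, the large scaffold of the complex, had 5.76 and 6.02 FPKM in HG, 8.86 and 9.40 with rFGF1WT, and 9.87 and 9.43 with rFGF1ΔHBS. Wdr43 had 16.7 and 17.9 FPKM in HG, 25.8 and 26.4 with rFGF1WT, and 28.1 and 26.6 with rFGF1ΔHBS. For these, the changes were 0.55 and 0.63 (Heatr1) and 0.56 and 0.63 (Wdr43), each with an SE of 0.06. Utp4 had 11.9 and 12.1 FPKM in HG against 16.1 to 18.1 in the treated libraries, and Wdr75 had 7.39 and 7.66 against 10.5 to 12.1. Wdr75 was near the limit in each comparison (0.46, adjusted p = 0.0562, and 0.53, adjusted p = 0.0421), and its difference between the proteins was 0.07 (95% interval −0.15 to 0.29). The remaining UtpA member, Utp15, had 9.25 and 5.44 FPKM in HG and 6.87 to 10.1 in the treated libraries, and the HG libraries spanned 3 of the 4 treated values.

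UtpB, which binds after UtpA at the 5′ spacer, had 2 of 6 members up with each protein. Utp18 had 6.65 and 6.30 FPKM in HG, 9.64 and 8.80 with rFGF1WT, and 9.17 and 9.23 with rFGF1ΔHBS, and Wdr36 had 17.8 and 16.7 in HG, 22.5 and 22.7 with rFGF1WT, and 22.9 and 22.1 with rFGF1ΔHBS. Their changes were equal with the proteins to 2 decimals, 0.45 for Utp18 and 0.37 for Wdr36. Pwp2 had 14.7 and 13.5 FPKM in HG against 17.6 to 19.2 and did not pass (adjusted p = 0.0699 and 0.0697), nor did Wdr3 at 13.1 and 11.1 against 13.3 to 15.2. Tbl3 had 7.16 and 7.61 FPKM in HG, 8.37 and 7.42 with rFGF1WT, and 7.72 and 8.24 with rFGF1ΔHBS. It overlapped HG only with rFGF1WT and did not pass with either protein. Utp6 overlapped HG with both, at 21.5 and 14.1 FPKM with rFGF1WT and 21.6 and 13.8 with rFGF1ΔHBS beside 21.6 and 19.9 in HG.

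Members of UtpC, of casein kinase 2 (CK2), which is found with it, and of the Mpp10 complex went in different directions. Mphosph10, the centre of the Mpp10 complex, had 7.21 and 6.59 FPKM in HG, 10.3 and 11.0 with rFGF1WT, and 12.0 and 10.9 with rFGF1ΔHBS, a change of 0.56 ± 0.08 and 0.66 ± 0.08 (SE; adjusted p = 0.0361 and 0.0263). Its binding partner Imp4 had 5.52 and 5.35 FPKM in HG and 4.91 to 5.81 in the treated libraries, an overlap with HG. The other partner, Imp3, a gene of 1 exon, had 2.36 and 0 in HG, 0 and 0 with rFGF1WT, and 12.5 and 0 with rFGF1ΔHBS, so that no fold change was given. Nol6, a UtpC subunit, had 11.0 and 11.0 FPKM in HG against 13.1 to 14.8, without passing (adjusted p = 0.112 and 0.0728). The CK2 subunits Csnk2b and Csnk2a2 stayed within 0.08 of HG on the log2 scale, at 37.1 to 42.0 and 6.18 to 6.65 FPKM over all libraries.

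Rrp7a, the other UtpC subunit in the entry, was the only member that passed in all 3 comparisons, and it did so in opposite directions. It had 21.4 and 20.9 FPKM in HG, 28.1 and 26.3 with rFGF1WT, and 15.0 and 14.7 with rFGF1ΔHBS. The 3 groups did not overlap, with rFGF1WT highest and rFGF1ΔHBS lowest. It rose by 0.34 ± 0.06 with rFGF1WT (SE; adjusted p = 0.0483) and fell by 0.49 with rFGF1ΔHBS (adjusted p = 0.0248). The difference between the proteins was −0.83, with a 95% interval of −0.98 to −0.68 (adjusted p = 0.0236), the single call among the 71 members in that comparison, where 0.549% of all loci passed. Rrp7a lies at GRCm38 chr15:83113433-83122801 on the minus strand and shares 678 exonic bases with Serhl on the plus strand, and the sources used here do not say whether fragments were counted by strand. Serhl had 4.13 and 4.11 FPKM in HG, 3.10 and 3.06 with rFGF1WT, and 3.50 and 3.18 with rFGF1ΔHBS, far below Rrp7a per length in each library. In all, 25 of 71 members had such an overlap with an annotated gene on the opposite strand, among them 6 of the 19 that rose with at least 1 protein.

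Among the 9 other SSU factors, the locus that joins Utp14b with Acsl3 was the only call. It had 7.29 and 7.90 FPKM in HG and 10.5 to 10.8 in the treated libraries, and its fragments cannot be divided between the processome factor and the acyl-CoA synthetase. Without the 8 loci that join several genes or hold another one, an alternative chosen after seeing the data, 14 and 16 of 63 members were called. The acetyltransferase Nat10 (adjusted p = 0.0636 and 0.0801) and Tcof1, which couples rRNA transcription to processing (adjusted p = 0.0734 and 0.0692), were close to the threshold with both proteins. Tcof1 had 19.9 and 20.5 FPKM in HG and 24.9 to 27.8 in the treated libraries. The GTPase Bms1 had 17.8 and 18.0 FPKM in HG against 19.2 to 21.2. Rbm28, placed among these factors only by the list used here, had 14.8 and 17.7 in HG against 12.7 to 13.9. It was 1 of the 2 members with all treated libraries below HG. None of the 4 late 40S factors was called by limma (1 and 2 were higher at an unadjusted p under 0.05, Riok2 with both proteins and Riok1 with rFGF1ΔHBS), although both treated groups were above HG for all 4 of them. The nuclease Nob1, which makes the last cut of 18S rRNA, had 5.15 and 5.92 FPKM in HG, 10.2 and 6.96 with rFGF1WT, and 7.66 and 9.29 with rFGF1ΔHBS, changes with a wide spread between replicates (0.54 and 0.53, SE 0.20; adjusted p = 0.207 for each).

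**Figure D2:**
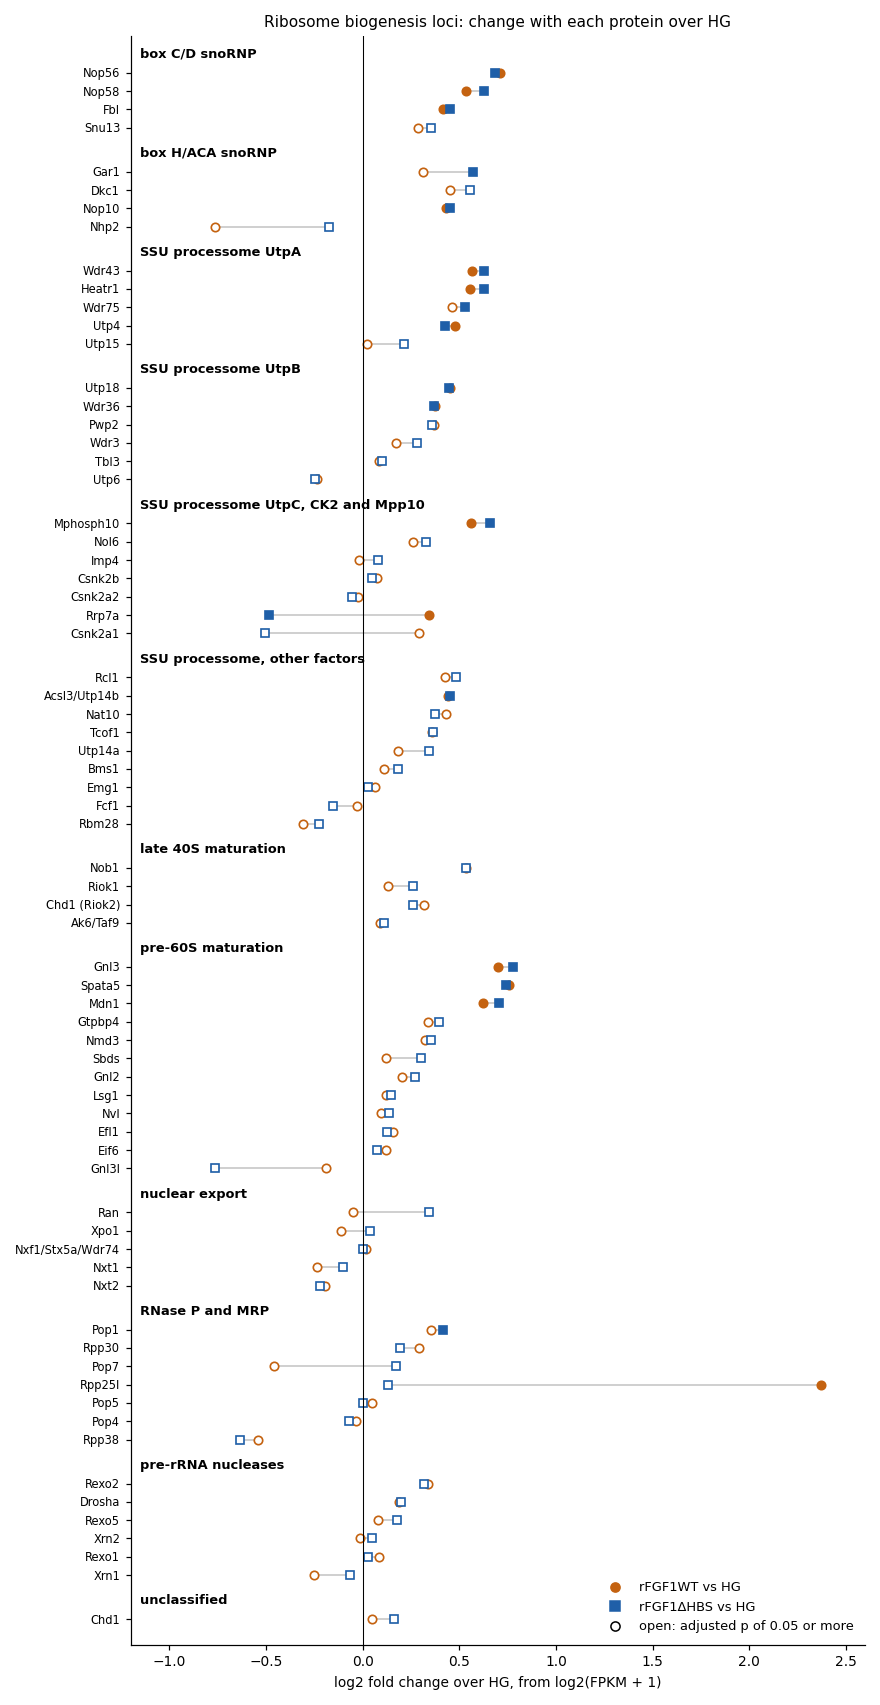
Log2 fold change over HG of each member (horizontal axis) with rFGF1WT (circles) and rFGF1ΔHBS (squares), grouped by complex, filled where the adjusted p was under 0.05. Imp3 is left out because 4 of its 6 libraries were at 0. The paired symbols lie close together for most members, box C/D and UtpA members lie to the right of 0, and Rrp7a, Csnk2a1 and Rpp25l have the widest gaps between the symbols.

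The promoters of these genes were read for CACGTG, the palindromic E-box, which basic helix-loop-helix factors such as MYC are known to bind, in the RefSeq window (GRCm38.p6) from 250 bases before to 50 after each start. Of 16 risen members with a promoter in the table, 6 (37.5%) held it, and of 42 other members, 6 (14.3%) did. The share was 12.3% of the 8168 symbols of tested loci and 8.09% of all 27025 symbols. This is a description of letters, with no test. The 6 risen members with the motif include Utp14b, whose locus is joined with Acsl3 and for which only the Utp14b promoter was read. They also include Rrp7a, which rose with rFGF1WT and fell with rFGF1ΔHBS. Windows of 30 bases around 5 of the sites in risen members follow, 5′ to 3′ on the strand of the gene with CACGTG in capitals, for Utp4 (chr8:106893643-106893672), Wdr43 (chr17:71616220-71616249), Utp18 (chr11:93885769-93885798), Utp14b (chr1:78658365-78658394) and Rrp7a (chr15:83122992-83123021). The motif begins at base 16 after the start for Utp4 and 18 for Wdr43, and 20, 63 and 208 bases before it for Utp18, Utp14b and Rrp7a. The sixth, in Mdn1, begins at base 39 after the start. No CACGTG was in the windows of Nop56, Nop58, Gnl3 and Heatr1.
Utp4: tgcgcaagcgcgCACGTGgggccggggcgg
Wdr43: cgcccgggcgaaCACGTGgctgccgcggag
Utp18: gcgagcgccggtCACGTGgcttgcggcggc
Utp14b: cgcgggcgcgggCACGTGggtggggtcgtc
Rrp7a: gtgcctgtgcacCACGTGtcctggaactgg

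Of the 12 pre-60S members, 3 rose with both proteins, and Spata5 and Gnl3 had the largest log2 change of the 14 shared calls, Spata5 with rFGF1WT and Gnl3 with rFGF1ΔHBS. Gnl3 (nucleostemin), a nucleolar GTPase of the large subunit pathway, had 20.5 and 20.5 FPKM in HG, 33.5 and 34.4 with rFGF1WT, and 38.7 and 33.3 with rFGF1ΔHBS. Spata5, an AAA ATPase that acts on cytoplasmic pre-60S particles, had 4.02 and 3.71 FPKM in HG, 7.41 and 7.04 with rFGF1WT, and 7.09 and 7.17 with rFGF1ΔHBS. Its locus is joined with Gm43484 and shares 316 exonic bases with Nudt6 on the opposite strand, which had 2.06 and 1.603 FPKM in HG and 2.50 to 2.70 in the treated libraries. Mdn1, the giant ATPase that strips assembly factors from pre-60S particles, had 2.71 and 2.54 FPKM in HG, 4.75 and 4.42 with rFGF1WT, and 5.06 and 4.75 with rFGF1ΔHBS. All treated libraries were clear of HG for each of them, with changes of 0.70 and 0.78 for Gnl3, 0.76 and 0.74 for Spata5, and 0.62 and 0.70 for Mdn1 (adjusted p from 0.0159 to 0.0252). The ratio of FPKM for Mdn1 was larger than its log2 value shows, since a pseudocount of 1 weighs more at low levels, and its mean was 74.5% and 86.8% above HG.

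The other pre-60S members were mostly higher without passing. The export adaptor Nmd3 had 6.29 and 6.23 FPKM in HG and 7.84 to 8.71 in the treated libraries (adjusted p = 0.0856 and 0.0694), and the GTPase Gnl2 had 16.2 and 18.0 against 19.5 to 20.9. Eif6, which keeps the 60S subunit from joining the 40S too early, had 20.4 and 18.6 FPKM in HG and 19.98 to 21.7 in the treated libraries, an overlap with HG. Gnl3l, a paralog of Gnl3, was the exception among the 12. It had 20.8 and 20.4 FPKM in HG, 21.1 and 15.2 with rFGF1WT, and 12.8 and 10.7 with rFGF1ΔHBS, and its change of −0.76 with rFGF1ΔHBS did not pass (adjusted p = 0.0899).

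**Figure D3:**
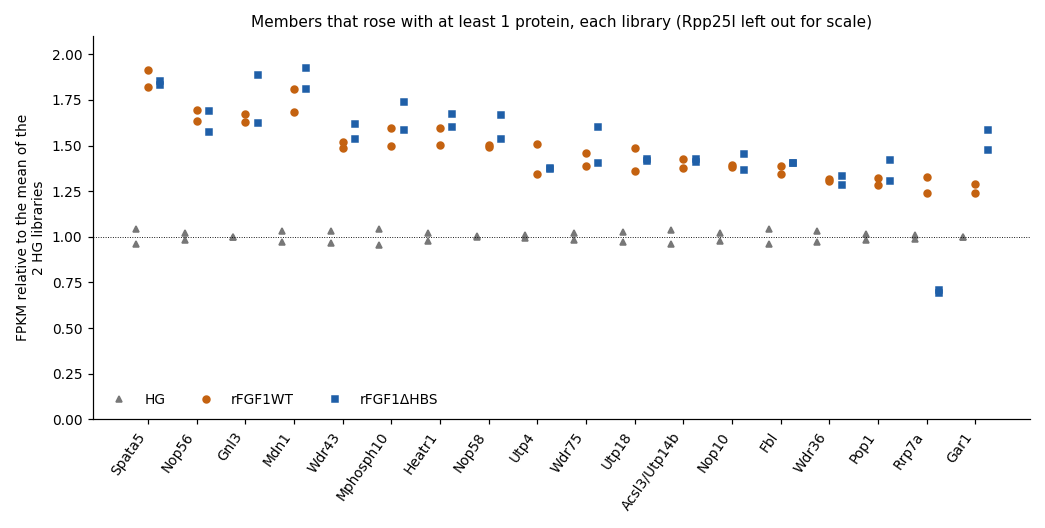
FPKM of each library divided by the mean of the 2 HG libraries (vertical axis, from 0) for 18 of the 19 members that rose with at least 1 protein (Rpp25l is left out for scale), with triangles for HG, circles for rFGF1WT and squares for rFGF1ΔHBS. Of the 18 shown, each treated library lies above both HG libraries of its gene, apart from Rrp7a with rFGF1ΔHBS.

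None of the 5 export members was called by limma, and at an unadjusted p under 0.05 Nxt2 was lower with both proteins and Ran higher with rFGF1ΔHBS. Ran, the small GTPase that drives transport through the nuclear pore and the highest of all members, had 108 and 99.5 FPKM in HG, 103 and 97.4 with rFGF1WT, and 133 and 131 with rFGF1ΔHBS. The rFGF1WT libraries overlapped HG while those with rFGF1ΔHBS lay above all others, a change of 0.34 that fell just short of the threshold (adjusted p = 0.0533). The exportin Xpo1, which carries both subunits out with Ran, had 38.1 and 40.1 FPKM in HG, 37.0 and 35.3 with rFGF1WT, and 42.2 and 38.3 with rFGF1ΔHBS, and its changes of −0.11 and 0.04 did not pass. The Nxf1 locus, which joins this mRNA export receptor with Stx5a and Wdr74, stayed at 15.0 to 16.8 FPKM. Its partner Nxt1 had 1.33 and 1.03 FPKM in HG and 0.504 to 1.27 in the treated libraries, and Nxt2 had 12.3 and 11.7 in HG against 9.99 to 10.7, the other member with all treated libraries below HG.

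Among the 7 subunits of RNase P and RNase MRP, which cut precursor tRNA and precursor rRNA and share most proteins, 1 rose with each protein, and it was not the same subunit. Pop1, the largest subunit, had 11.2 and 10.8 FPKM in HG, 14.5 and 14.1 with rFGF1WT, and 14.4 and 15.6 with rFGF1ΔHBS, and passed with rFGF1ΔHBS (0.41, adjusted p = 0.0410) but not with rFGF1WT (0.35, adjusted p = 0.0566). The difference for Pop1 was 0.06, with a 95% interval of −0.11 to 0.23. Rpp25l, a paralog of the RNA-binding subunit Rpp25, had 0.681 and 1.70 FPKM in HG, 10.4 and 9.65 with rFGF1WT, and 1.68 and 1.02 with rFGF1ΔHBS. Only the rFGF1WT libraries stood high, and the change of 2.37 ± 0.28 there (SE; adjusted p = 0.0245) was the largest of any member. The difference of −2.24 between the proteins (95% interval −2.99 to −1.50) did not pass over all loci (adjusted p = 0.117). Rpp30 had 18.3 and 18.0 FPKM in HG and 17.3 to 25.1 in the treated libraries, and Rpp40, below the expression limit and therefore untested, had 0.604 and 0.687 in HG, 0.797 and 0.806 with rFGF1WT, and 0.831 and 0.823 with rFGF1ΔHBS.

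Subunits of this group with few exons were uneven between replicates. Rpp38 had 3.03 and 4.31 FPKM in HG, 0.307 and 6.74 with rFGF1WT, and 6.40 and 0.195 with rFGF1ΔHBS, and Pop7 had 10.6 and 2.13 with rFGF1WT beside 6.72 and 7.88 in HG and 7.34 and 9.44 with rFGF1ΔHBS. With Imp3 they were the 3 members in which the replicates of a group lay at least 2-fold apart on the log2(FPKM + 1) scale, and all 3 have at most 2 exons, as do Nop10 and Rpp25l. None of the 66 members with more exons had such a gap. Over all tested loci, 45.9% of the 827 with 1 or 2 exons had it, against 7.67% of the 9567 with more. Rpp25l has 2 exons and lies within Il11ra1, a gene on the opposite strand, with no exon in common (GRCm38 chr4:41712033-41713534), and the part of this spread in its change was not tested.

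The 6 members grouped here as pre-rRNA nucleases had no limma call, and 2, Drosha and Rexo2, were higher at an unadjusted p under 0.05 with each protein. The median changes of the 6 were 0.08 and 0.11, and whether each of them acts on the spacers was not tested. Xrn2, the nuclear exonuclease that degrades from the 5′ end and the second highest member, had 44.9 and 46.2 FPKM in HG, 44.9 and 45.3 with rFGF1WT, and 47.4 and 46.9 with rFGF1ΔHBS. Rexo5 was at 0.761 to 1.34 FPKM, with overlapping groups. Drosha and Rexo2 were above HG in all treated libraries. The remaining locus, named Chd1 in the table and placed in no complex, had a change of 0.05 and 0.16, and a separate locus with the same name holds a transcript of Riok2 and was counted with the late 40S factors.

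**Figure D4:**
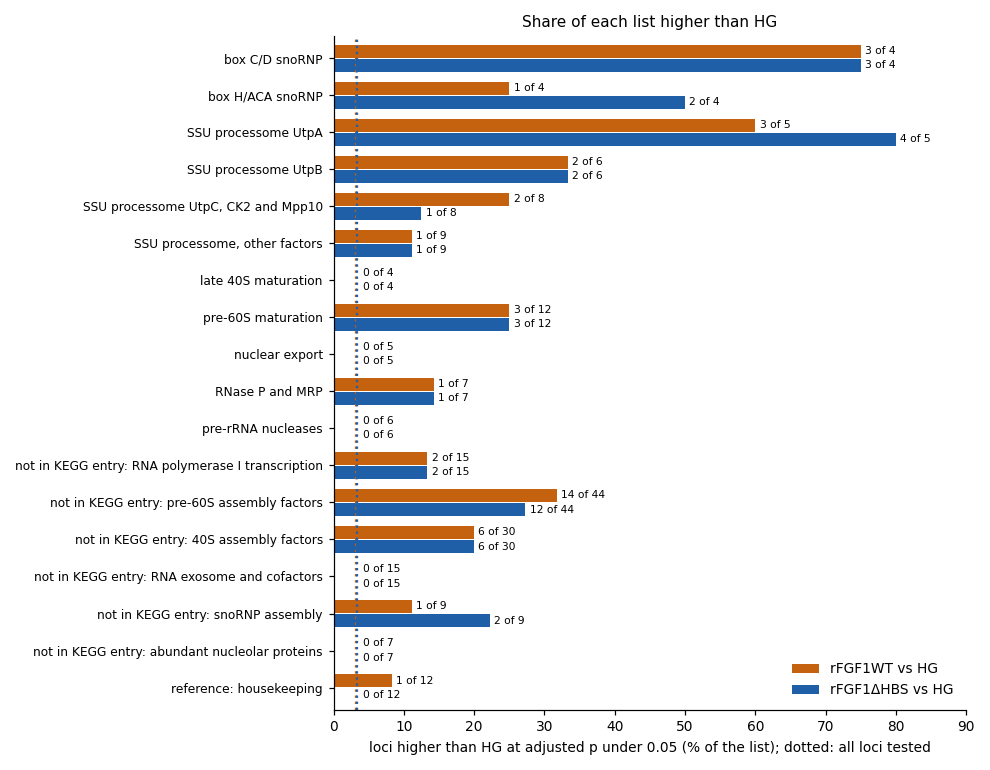
Percent of the loci in each list that were higher than HG at an adjusted p under 0.05 (horizontal axis), with rFGF1WT and with rFGF1ΔHBS, for the complexes of the KEGG entry and for lists outside it, with the count beside each bar and dotted lines at 3.26% and 3.37% of all loci. Box C/D and UtpA had the highest shares, and export, late 40S, nuclease, exosome and nucleolar lists had none.

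Between the proteins most members were close. Of the 14 that rose with both, the difference of rFGF1ΔHBS from rFGF1WT ran from −0.05 to 0.10, and each 95% interval lay within −0.24 to 0.31. Over all 71, the interval lay within 0.5 of 0 for 56 members and reached further for 15, which leaves differences of that size open for those. The median difference was 0.03, against 0.01 for all loci, and 43 members were higher with rFGF1ΔHBS (51.9% of all loci). Both rFGF1ΔHBS libraries were above both rFGF1WT libraries for 21 members (18.4% of all loci) and below both for 7 (16.1%). Intervals without 0 were found for 5 members, higher with rFGF1ΔHBS for Gar1 and Ran and lower for Rrp7a, Rpp25l and Gnl3l, and 4.87% of all loci had an unadjusted p under 0.05 in this comparison. Ran differed by 0.40, from 0.23 to 0.56 (adjusted p = 0.213), and Gnl3l by −0.57, from −1.05 to −0.09 (adjusted p = 0.905). The catalytic subunit Csnk2a1 had 21.4 and 10.9 FPKM in HG, 19.2 and 18.8 with rFGF1WT, and 10.4 and 10.6 with rFGF1ΔHBS. Its treated groups were well apart, while the HG libraries reached beyond both the higher group and close to the lower, and the difference of −0.80 had an interval of −1.63 to 0.03. No member other than Rrp7a passed here, and none was higher with rFGF1ΔHBS at an adjusted limma p under 0.05, where 0.294% of all loci were (2 members at an unadjusted p under 0.05).

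**Figure D5:**
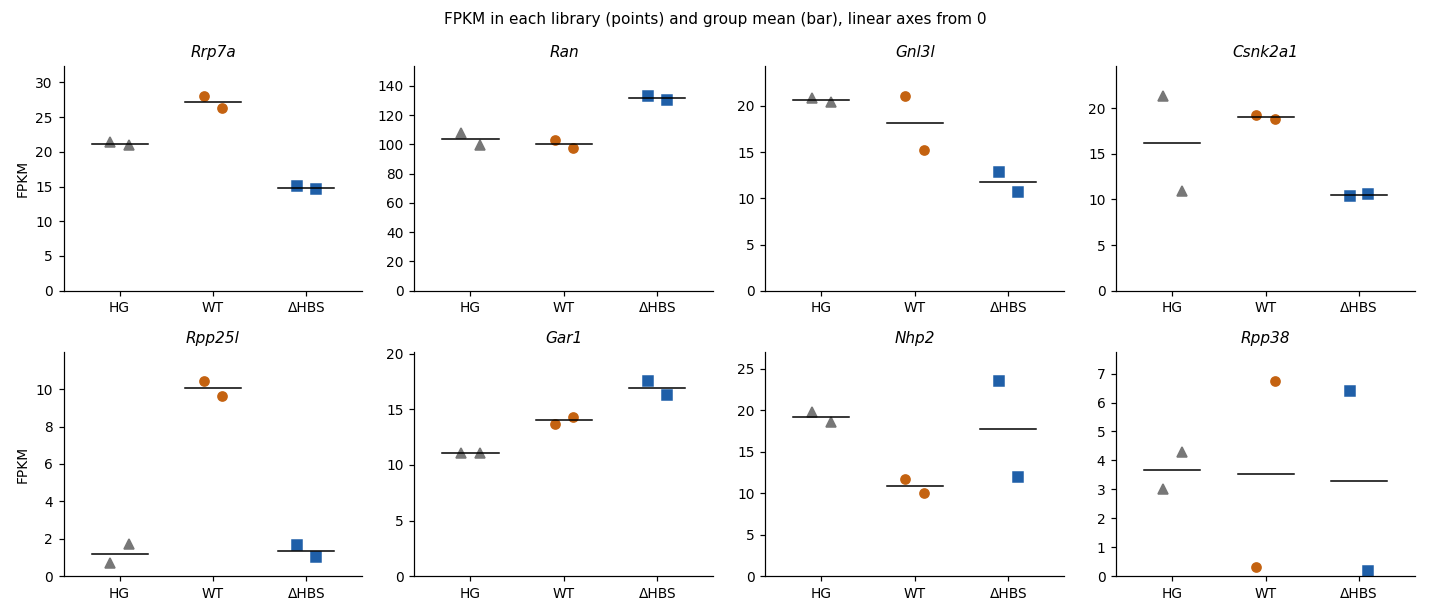
FPKM of 8 members in each library (points) with the mean of the 2 libraries of a group (bars), on linear axes from 0, for HG, rFGF1WT and rFGF1ΔHBS. Rrp7a has 3 separate groups with rFGF1ΔHBS lowest, and Rpp25l is high only with rFGF1WT. Ran is high in all groups and highest with rFGF1ΔHBS, and the replicates of Nhp2 and Rpp38 lie far apart.

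Ribosome biogenesis factors that the KEGG entry does not hold were read from 6 further lists. Of their 120 tested loci, 23 rose with rFGF1WT and 22 with rFGF1ΔHBS at an adjusted limma p under 0.05, and none fell. Over all loci, 3.26% and 3.37% rose by this rule, and 2.94% and 2.89% fell. At an unadjusted limma p under 0.05, 50 and 53 of the 120 were higher (10.8% and 10.9% of all loci). By that rule 1 and 3 were lower, where 14% of all loci were in each comparison. The median change of the 120 loci was 0.22 with each protein. Pre-60S assembly factors had 14 and 12 of 44 up, among them the rRNA methyltransferase Nop2, with 20.05 and 19.6 FPKM in HG, 35.7 and 33.6 with rFGF1WT, and 34.5 and 34.0 with rFGF1ΔHBS. Of 30 further 40S factors 6 rose with each protein, including Rrp12, with 6.20 and 6.43 FPKM in HG, 12.9 and 12.0 with rFGF1WT, and 12.6 and 13.7 with rFGF1ΔHBS, an increase of 0.88 and 0.95 that exceeded every shared call of the entry. In the RNA polymerase I list, 2 of 15 rose with each protein, the subunits Polr1a (0.48 and 0.53) and Polr1e (0.51 and 0.57), but the list's medians were 0.07 and −0.04 and 9 and 7 of its 15 loci were above 0, with Rrn3, the initiation factor of the polymerase, at −0.46 with rFGF1ΔHBS (adjusted p = 0.109). The snoRNP assembly list had 1 and 2 of 9 up, Nolc1 with both (0.74 and 0.66) and Znhit6 with rFGF1ΔHBS (0.41). None of the 15 exosome loci or the 7 abundant nucleolar proteins was called by limma (4 and 6, and 2 and 2, were higher at an unadjusted p under 0.05), nucleolin (Ncl) among them, at 54.4 and 56.0 FPKM in HG and 61.8 to 66.9 in the treated libraries (adjusted p = 0.110 and 0.0620). Of 12 housekeeping genes, Actb rose with rFGF1WT (adjusted p = 0.0450) and none passed with rFGF1ΔHBS (3 at an unadjusted p under 0.05, Actb among them).

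Relative depth was read from low values, at 0.973 to 1.01 of the first HG library, but only ratios close to 1 were searched. That reading could therefore not show a larger difference in depth, and FPKM is already scaled to the mapped total. The FPKM sums were 179590 to 185170. Log2 levels correlated at 0.916 to 0.923 within groups and 0.895 to 0.924 between them. Of 15 podocyte markers, 8 had a mean of at least 1 FPKM, with Actn4 at 83.2 to 106 and Podxl at 14.9 to 17.7, but the defining marker Wt1 (at most 0.0731) was near 0, and the tubular gene Cdh16 (68.4 to 96.2) and parietal gene Pax2 (19.3 to 25.6) were present. The summed podocyte list was 227.8 to 232.5 FPKM in HG and 301.6 to 320.9 in the treated libraries. Within it Nes (41.8 to 43.2 and 78.7 to 84.3), Kirrel and Actn4 were higher in the treated libraries, and Synpo (9.58 to 10.2 and 4.01 to 6.83) and Podxl were lower. The tubular list, with 2 of its markers at a mean of at least 1, summed to 113.5 to 123.1 in HG and 91.1 to 96.3 in treated libraries, and the parietal list, with 4 of 5, to 59.0 to 69.5 and 72.4 to 77.9. The mesangial and smooth muscle list, with 3 of 8, summed to 45.2 and 47.8 in HG and 43.4 to 48.3 in treated libraries. In that list Pdgfrb was lower in treated libraries (31.8 and 32.7 in HG, 26.1 to 27.5). Acta2 was higher in them (10.8 and 12.7 in HG, 14.1 to 17.65). The macrophage list summed to 60.9 to 62.8 in HG and 66.9 to 71.2 in treated libraries. Most of it came from the joined locus of Cd68 and Eif4a1 (50.1 to 67.3 over all libraries). Csf1r was at 9.56 and 10.7 in HG and 3.21 to 3.94 in treated libraries, and Adgre1 was near 0. The endothelial list, with Pecam1 near 0, summed to 3.54 and 3.92 in HG and 1.61 to 3.57 in treated libraries. The part of cell makeup in the changes above was not tested, and in bulk RNA fewer cells of a type and less RNA per cell cannot be told apart.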

How the data were processed

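RNA-Seq was done on 6 libraries of MPC, 2 per group, and samples were grouped by their labels. The authors deposited FPKM from poly(A) paired-end reads, which their methods say were summarized with edgeR. The submitters' processing notes list HISAT2 2.0, StringTie 1.3.0, Bowtie 0.12.2 and the build mm8, with no role or order. Since the table gives Ensembl transcripts for its loci, positions and exon numbers were taken from GENCODE M21 (GRCm38) through those transcripts (78602 of 78903 found, 99.6%), and promoters from RefSeq (GRCm38.p6). Fragments of joined or overlapping loci may be divided in ways the table does not show.

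The model was a limma fit (version 3.58.1, under R 4.3.3, with an eBayes trend) of log2(FPKM + 1) over all 6 libraries and the 10562 loci with a mean of at least 1, with Benjamini-Hochberg adjustment over all of them and a threshold of 0.05. With 2 against 2 libraries an exact permutation test cannot pass 0.05, so single values got none. Read depth is unknown from FPKM, so no counting interval is given. The fit was tested on simulated data. Other steps ran in Python 3.11.15 with pandas 2.3.3, numpy 2.4.6 and, for plots, matplotlib 3.10.9.

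The members and all lists were chosen with earlier results of these data known. A gene in several complexes counts in the first. Genes are named if called, among the 5 largest changes in each direction or the 5 smallest p between the proteins, core subunits of a complex, the 3 highest or lowest levels, the 3 on each side of the expression limit, or up to 3 per further list. Nat10, Utp15, Tbl3, Nxt2, Drosha, Rexo2, Csnk2a2, Chd1, Riok1, Riok2, Serhl, Nudt6 and Rrn3 were named after their values were seen. Alternatives were a pseudocount of 0.1, no filter or a mean of 5, only loci above 0 in all libraries, median-ratio and quantile scaling, robust eBayes, a replicate block, only the 4 libraries compared, a 2-fold limit, and leaving out each library.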

Additional observations from a re-analysis of the deposited data

Results flagged for a closer look

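Rrp7a differed between the proteins in the test of the difference itself, with a log2 fold change of −0.83 for rFGF1ΔHBS minus rFGF1WT (adjusted p = 0.0236), and its changes over HG had opposite signs. The call was lost without each single library other than rFGF1WT replicate 2, while the sign stayed the same.

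Rpp40, a subunit of RNase P and RNase MRP below the limit of a mean of 1 FPKM, had a mean of 0.814 FPKM over the 4 treated libraries, all of them above both HG libraries. It was outside the fit and was not tested.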

How the results depend on the processing

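The 35 calls of members were recomputed 522 times in all, with the same sign each time and the threshold passed 232 times. Members that were not called could change sign, such as Csnk2a2 with rFGF1WT, at −0.02 and at 0.01 with median-ratio scaling. For rFGF1WT against HG, the 16 calls became 6 with no filter on the mean, 2 with only the 4 libraries compared, 1 with a 2-fold limit and 0 to 2 without single libraries. For rFGF1ΔHBS, the 18 became 11 with no filter, 0 with only the 4 libraries compared and 0 with the 2-fold limit. Almost none or none of the 18 were kept without single libraries. What was called without HG replicate 2 was a fall outside them (Csnk2a1, −0.96). Between the proteins the 1 call was 0 with the 4 libraries or the 2-fold limit, and it was lost without most single libraries. Fits with fewer libraries have fewer residual degrees of freedom. Against HG they called fewer of all loci, 170 and 189 with 4 libraries in place of 654 and 661, while between the proteins 43 to 107 loci were called without single libraries in place of 58.

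The member median for rFGF1WT, 0.18, was 0.23 at a mean of at least 5, 0.22 with median-ratio scaling, 0.21 with quantile scaling and 0.18 to 0.22 without single libraries. For rFGF1ΔHBS, 0.26 became 0.28 with a pseudocount of 0.1, 0.24 with loci above 0 in all libraries, 0.29 with median-ratio scaling and 0.22 to 0.28 without single libraries. Between the proteins, 0.03 became 0.0587 without joined loci, an alternative added after seeing the data. The cause of these shifts was not tested.

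With a replicate block, 0 members were called in each comparison by limma (41, 39 and 6 of all loci). Same-numbered libraries did not deviate together (r = −0.0212, 0.0980 and −0.0467), so the numbers were not treated as pairs.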
